A study of Mus musculus with 81 samples.

Results

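The windows described here are 100 bp stretches of the mouse genome that hold 7 or more CpG sites and lie away from promoters. They were taken from 2 tables of methyl-binding-domain sequencing (MBD-seq), 1 for each generation, by 3 conditions that use no measured count. The CpG number given for the window (called CF) had to be 7 or more, every GENCODE transcript start of the GRCm38 genome had to lie more than 1000 bp away, and the window could overlap none of the long terminal repeat (LTR) loci for which the study counted retroviral RNA. All 3 conditions were met by 323 of 154773 windows in F1 and by 318 of 164382 in F3. The F1 table held 976 windows with a CF of 7 or more, of which 551 lay within 1000 bp of a transcript start and 102 of the rest overlapped an LTR locus. The F3 table held 1030, of which 584 and 128 were left out in the same way.

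In the study, female OG2 mice (F0) drank water with 50 nM tributyltin (TBT, an organotin compound that activates nuclear receptors of fat cell development) or with the vehicle dimethyl sulfoxide (DMSO), from before mating until weaning. Testes were taken from late fetuses (E18.5), namely from their male offspring (F1) and from F3 males bred without sibling mating and without further exposure. OG2 is a transgenic line on the C57BL/6J background in which the Pou5f1 promoter and distal enhancer drive green fluorescent protein in germline cells, and all animals of both exposures carried it. MBD-seq was done on the P6 population, the cells without fluorescence, from 3 DMSO and 4 TBT libraries in F1 and from 5 DMSO and 7 TBT libraries in F3. P6 is the somatic remainder of the testis rather than 1 cell type, and the tables hold DNA only, so no expression marker of Sertoli, Leydig or germline cells could be used to check it here. The study's methods call the samples independent, and a figure legend names 3 independent litters for the F1 somatic profiles it shows. The labels do not tie single libraries to animals or litters, so the p-values measure the spread between these libraries. The total of the table was between 701493 and 1913353 counts per library in F1 and between 1105120 and 1556376 in F3. The tables list a small part of all windows of the genome, and the sources used here do not give how those were chosen.

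In mammalian DNA most CpG sites carry a methyl group, and CpG sites are rare because methylated cytosine mutates readily. CpG islands, stretches where the sites have stayed dense, are mostly free of methylation, and many of them are promoters. Away from promoters, dense CpG sites are found in coding exons, in tandem repeats and transposons, and in islands inside or between genes, and in these places they may be methylated or not. A methyl-binding domain captures fragments more readily the more methylated CpG sites they carry. A dense window therefore tends to give many counts when methylated and few when not. A window with few sites tends to give few counts in either state, unless methylated sites close by lie on the same fragments.

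The first 4 sequences are windows without UTR bases whose F1 libraries separated by exposure, shown as examples of separate groups, and none of the 4 passed the false discovery rate. They are reference bases of the plus strand of GRCm38 (RefSeq), with CpG sites in capitals. All 4 are described with their values further on.
Klhl30 coding exon, F1, chr1:91354201-91354300: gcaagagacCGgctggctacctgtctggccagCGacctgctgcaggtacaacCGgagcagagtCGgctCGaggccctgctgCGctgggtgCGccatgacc
Tenm3 coding exon, F1, chr8:48342301-48342400: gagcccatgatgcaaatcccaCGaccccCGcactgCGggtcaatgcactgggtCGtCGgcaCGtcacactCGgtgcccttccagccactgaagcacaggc
outside genes near Ak6, F1, chr13:100666501-100666600: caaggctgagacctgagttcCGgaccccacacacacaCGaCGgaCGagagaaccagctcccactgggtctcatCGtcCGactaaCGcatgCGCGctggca
Mbnl2 intron, F1, chr14:120329801-120329900: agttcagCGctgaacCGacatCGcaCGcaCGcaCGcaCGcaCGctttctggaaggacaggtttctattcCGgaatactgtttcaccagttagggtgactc

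The next 5 are windows with the highest or next highest mean level of their class and generation, F3 exons left out, and are shown because they are among the most strongly captured dense sequences away from promoters.
Zbtb7a coding exon, F1, chr10:81144801-81144900: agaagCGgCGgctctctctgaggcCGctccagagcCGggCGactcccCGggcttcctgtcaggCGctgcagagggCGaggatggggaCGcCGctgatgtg
Acacb intron, F1, chr5:114247001-114247100: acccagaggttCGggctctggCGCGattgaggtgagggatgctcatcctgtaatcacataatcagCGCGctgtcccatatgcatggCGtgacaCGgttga
outside genes near Pom121l12, F1, chr11:13615601-13615700: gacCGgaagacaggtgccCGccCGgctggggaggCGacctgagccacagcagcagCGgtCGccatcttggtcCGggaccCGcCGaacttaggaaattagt
Mid1 intron, F3, chrX:170002901-170003000: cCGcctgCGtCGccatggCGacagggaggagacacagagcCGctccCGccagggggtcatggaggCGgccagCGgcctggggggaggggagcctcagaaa
outside genes near Krba1, F3, chr6:48347601-48347700: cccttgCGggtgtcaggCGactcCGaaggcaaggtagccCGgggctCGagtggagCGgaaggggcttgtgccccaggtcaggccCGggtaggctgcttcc
Among these 9 sequences the GC content was between 54.0% and 73.0%, and neighbouring CpG sites were between 2 and 42 bases apart. In the Mbnl2 window several sites follow each other at steps of 4 bases in a short tandem run, whereas the Acacb window has a gap of 42 bases between neighbouring sites.

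Of the 323 F1 windows, 101 lay in exons (31.3%), 94 in introns (29.1%) and 128 outside genes (39.6%). The F3 windows were spread in nearly the same way, with 87 in exons (27.4%), 102 in introns (32.1%) and 129 outside genes (40.6%). Most exonic windows were coding sequence, with 84 in F1 and 73 in F3, while 10 and 7 lay in 3' UTRs and 7 and 7 in noncoding exons. A CF of exactly 7 was the most common, in 147 F1 and 152 F3 windows, and the highest values were 18 and 19. The median distance to a transcript start was 8447 bp in F1 and 9948 bp in F3. Genes contained 1 window in most cases: the F1 exon and intron windows belonged to 166 genes, of which 17 had 2 or more, and the F3 windows to 171 genes, of which 15 had 2 or more. In the 500 bp around the window, 109 F1 and 117 F3 windows reached a GC content of 50% together with an observed over expected CpG ratio of 0.6, the criteria often used for a CpG island. The F1 table is uneven along the genome: chromosome 10 from 81 to 82 Mb holds 1128 of its windows against 55 in the median 1 Mb, and 24 of the 323 windows lie in or just before that stretch, against 0 of the 318 in F3.

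Levels are given as CPM, the count scaled to a common total of the table after trimmed mean of M values (TMM) scaling, per 100 bp, so that windows can be compared with one another within a table. Windows in exons had the highest levels. In F1 the median window had 26.2 CPM in exons, 10.8 CPM in introns and 9.93 CPM outside genes, and in F3 26.2, 12.3 and 12.8 CPM. The order of exons above introns held in 7 of 7 F1 and 12 of 12 F3 libraries, as did that of exons above windows outside genes. Introns and windows outside genes were not separated in a fixed order: the intron median was above in 7 of 7 F1 libraries but in 4 of 12 F3 libraries. Within exons, coding windows had a median of 26.2 CPM in F1 and 27.0 CPM in F3, and those in 3' UTRs had 29.7 CPM (10 windows) and 30.6 CPM (7 windows). The 7 windows of noncoding exons in each table had medians of 2.77 and 0.509 CPM.

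**Figure D1:**
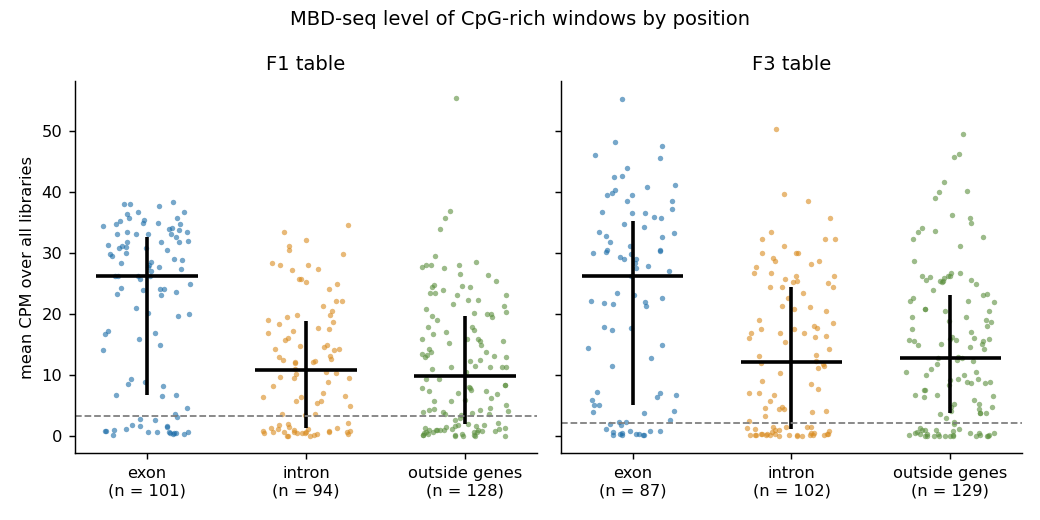
Mean CPM over all libraries (vertical axis) of each CpG-rich window, by its position in an exon, in an intron or outside genes, in the F1 and F3 tables. Points are windows, thick lines the median and quartiles, and the dashed line the median of windows with 0 CpG; exon medians were 26.2 CPM in both tables, and each class has windows on both sides of the dashed line.

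These windows did not all show the capture that methylated dense CpG gives. Windows with 0 CpG in the same table, which the domain cannot capture by their own sites, had a median of 3.4 CPM in F1 and 2.15 CPM in F3. At or below that level were 85 of the 323 F1 windows (26.3%) and 75 of the 318 F3 windows (23.6%), against 50.0% of the windows with 0 CpG by construction. So the windows, chosen without regard to counts, cannot all be called methylated from these counts, and lying above that median is no measure of methylation in a single window. By class, 20.8% of exon, 29.8% of intron and 28.1% of outside windows were at or below it in F1, and 17.2%, 30.4% and 22.5% in F3. Of the dense windows within 1000 bp of a transcript start, which the selection leaves out, 87.5% in F1 and 87.8% in F3 were at or below it, and their medians were 0.869 and 0.399 CPM. Dense windows in LTR loci had medians of 16.4 and 20.1 CPM, with 12.7% and 7.81% at or below that level. In 4 windows of each table every library had 0 counts, which allows up to 3 counts of a library's total.

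The thresholds of the selection separate windows that differ little at the CpG limit and more at the distance limit. Windows with a CF of 6 that met the other conditions had a median of 18 CPM in F1 (307 windows) and 20.7 CPM in F3 (299), against 17 CPM (147) and 18.6 CPM (152) for a CF of 7. Windows within 500 bp beyond the distance limit had medians of 8.58 CPM in F1 (27 windows) and 2.37 CPM in F3 (30), against 1.12 CPM (57) and 0.437 CPM (55) for those within 500 bp below it.

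The median level was highest at an intermediate number of CpG sites around the window and lowest at the highest, with a wide spread. Windows with under 15 sites in the surrounding 500 bp had a median of 15.3 CPM in F1 (63 windows) and 19 CPM in F3 (71 windows). Windows with 15 to 24 sites had a median of 20.5 CPM in F1 (134 windows) and 26.3 CPM in F3 (100 windows), and those with 35 or more had 2.32 CPM (46 windows) and 0.917 CPM (54 windows). The quartiles at 35 or more were 0.833 and 23.7 CPM in F1 and 0.346 and 5.71 CPM in F3. Above the level of windows with 0 CpG were 21 of the 46 in F1 and 21 of the 54 in F3. The median of 15 to 24 sites was above that of 35 or more in 7 of 7 and 12 of 12 libraries. Across windows, Spearman's rho between the mean CPM and the number of sites in 500 bp was -0.22 in F1 (323 windows) and -0.43 in F3 (318 windows), given as a description, since the windows share their libraries and base composition. With the window's own CF, rho was -0.10 and -0.30, and windows with a CF of 12 or more had medians of 8.74 CPM in F1 (18 windows) and 0.834 CPM in F3 (23 windows).

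The same surroundings went with different levels in the 3 classes, given here as a description. Among intron windows with 35 or more sites in 500 bp, 9 of 9 in F1 and 16 of 19 in F3 were at or below the level of windows with 0 CpG, with medians of 0.807 and 0.441 CPM. Exon windows with the same surroundings had medians of 6.84 CPM in F1 (25 windows) and 4.62 CPM in F3 (20 windows), and 10 and 7 of them were at or below that level. Outside genes the medians were 2.92 CPM (12 windows) and 0.848 CPM (15 windows). With under 25 sites in 500 bp, between 6.67% and 20.7% of the windows of a class were at or below that level in either table.

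**Figure D2:**
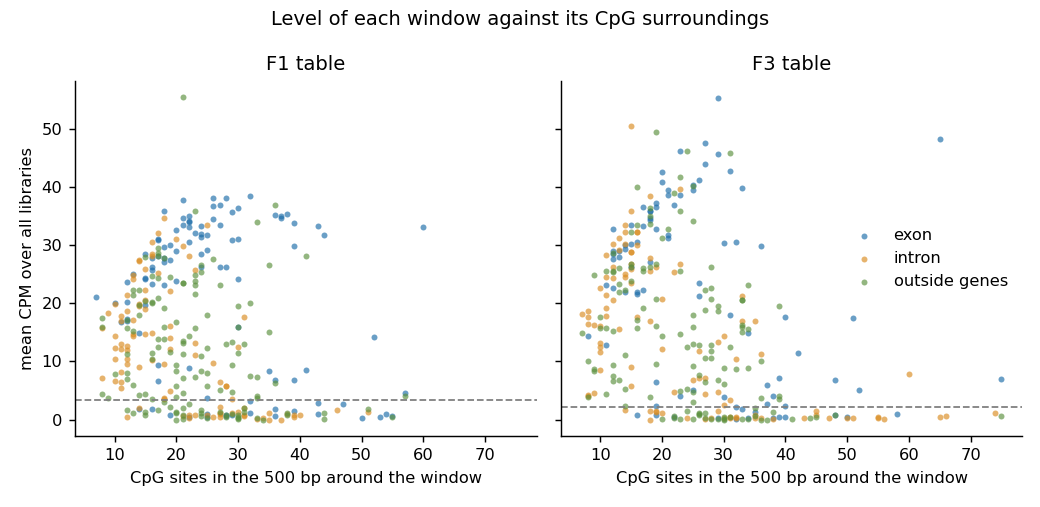
Mean CPM over all libraries (vertical axis) of each window against the number of CpG sites in the 500 bp around it (horizontal axis), for the F1 and F3 tables, with exon, intron and outside windows in separate colours. The dashed line is the median of windows with 0 CpG. Of the windows with 35 or more sites, 25 of 46 in F1 and 33 of 54 in F3 lie at or below it. The medians of all windows with 35 or more sites were 2.32 CPM in F1 and 0.917 CPM in F3.

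Single genes show both sides of this range. The following genes were chosen after their values were seen, because they hold several windows or stand out against their class. In F3, 3 intron windows of Ptma, which encodes prothymosin alpha, with a CF of 8 to 13, had 0.316 to 0.323 CPM, and 3 intron windows of Bcor, a corepressor of a Polycomb complex on chromosome X, with a CF of 9 to 15, had 0.173 to 0.441 CPM. In F1, 5 windows of Celf5, a gene of an RNA-binding protein, ran from 0.341 to 5.8 CPM. By contrast, 3 coding windows of Bahcc1, a chromatin protein gene, had 37.2, 45.6 and 41.1 CPM in F3. In F1, 4 windows of Zbtb7a, a transcription factor of the BTB and zinc finger family, had 29.1 to 38.4 CPM, and 5 windows of Pias4, a ligase that attaches SUMO to proteins, had 29.8 to 35.4 CPM. Coding windows with many sites around them could also be high: the Chst13 window (a sulfotransferase of chondroitin chains) has 65 sites in 500 bp and 48.2 CPM in F3, and the Zfp316 window 60 sites and 33.1 CPM in F1. Celf5, Zbtb7a and Pias4 all lie in the stretch of chromosome 10 where the F1 table is dense, so low and high windows stood side by side there.

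High levels of each class were found in the windows printed above and in the following ones. In F1 exons the Zbtb7a window at chr10:81144801-81144900 led with 38.4 CPM, followed by a coding window of the predicted gene Gm28035 at chr2:30255801-30255900 with 38.0 CPM. In F1 introns the leading windows were in Acacb, an acetyl-CoA carboxylase (34.6 CPM), and in Dhx35, a helicase (33.4 CPM). Of the F3 exon windows reported here, which leave out a higher one, the Chst13 window had the highest level, 48.2 CPM. In F3 introns the windows of Mid1 and of Golim4, a Golgi membrane protein, had 50.4 and 39.7 CPM. Outside genes, the F3 windows near Krba1 and near Arl6ip6 had 49.5 and 46.2 CPM, and 100 and 97 of their 100 bases are masked as repeats in the RefSeq genome.

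Outside genes, the median level was higher in windows masked as repeats, with wide overlap. In F1, 65 of the 128 were wholly masked as repeats (none of them an LTR locus of the study's list), with a median of 11.3 CPM, whereas the 36 without a masked base had 2.13 CPM. The F3 windows outside genes had 12.8 CPM when wholly masked (61 windows) and 1.46 CPM when not masked at all (33 windows). The quartiles overlap: they were 3.98 and 20 CPM (masked) and 1.11 and 18.4 CPM (unmasked) in F1, and 4.85 and 20.8 CPM and 0.452 and 23.3 CPM in F3. In introns the medians went in opposite directions in the tables, with 6.48 CPM (19 windows, wholly masked) and 12.8 CPM (40 windows, unmasked) in F1, and 8.18 CPM (30 windows) and 4.06 CPM (39 windows) in F3. Of the exon windows 83 of 101 in F1 and 77 of 87 in F3 had no masked base. How reads that match several copies of a repeat were counted is not given in the sources used here, so the assignment of counts to a single masked window is uncertain.

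The genes of lists with known roles held few of these windows. Imprinted genes, which are expressed from 1 parental allele, were represented by a coding window of Zim1 in F1 (35 CPM) and a coding window of Begain in F3 (17.7 CPM). Clustered protocadherins, cell surface proteins of neurons, had 1 window in F1, in the coding exon of Pcdhgb5 that overlaps the Pcdhga1 gene (33.2 CPM), and 2 in F3, both in Pcdhb17 (30.5 and 23.5 CPM). Of the zinc finger (Zfp) genes, 4 windows in F1 ran from 2.77 to 33.1 CPM and 4 in F3 from 0.217 to 25.3 CPM. Nuclear receptors and adipocyte regulators had 2 windows in each table, in Rorb (30.6 CPM) and Esrrg (14.1 CPM) in F1 and in Ncoa2 (26.2 CPM) and Rora (1.5 CPM, below the level of windows with 0 CpG) in F3. Kit, the receptor tyrosine kinase of germline cells, had an intron window with 31.1 CPM in F1. Pecam1, an adhesion molecule of vessel walls, had one with 9.53 CPM in F1, and Gdnf, a growth factor that Sertoli cells secrete for spermatogonia, a coding window with 7.22 CPM in F3. The Hox clusters and the genes of the methylation and silencing machinery had 0 windows in either table. Over all lists, 8 windows in F1 and 5 in F3 were tested for exposure, 0 of them passed in either direction, and the median log2 fold changes of the lists lay between -0.13 and 0.21.

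The share of a library's counts that fell in these windows did not differ between TBT and DMSO by more than the libraries of a group spread. The question of the comparison is whether exposure of the F0 dams goes with more or less methylated DNA at dense CpG sites in their offspring. In F1 the 3 DMSO libraries had 0.436%, 0.437% and 0.526% of their counts in the 323 windows, and the 4 TBT libraries 0.484%, 0.465%, 0.527% and 0.478%. The groups overlap, since DMSO library 3 and TBT library 6 are almost equal and above all others. The means were 0.467% ± 0.0513 (SD, n = 3) and 0.489% ± 0.0269 (SD, n = 4), with p = 0.486 in a two-sided exact permutation test over libraries. The smallest p that the 35 splits allow is 0.0286. In F3 the 5 DMSO libraries had 0.474%, 0.498%, 0.549%, 0.445% and 0.536%, and the TBT libraries from 0.376% to 0.652% with a median of 0.564%. The lowest and the 4 highest shares were all of TBT libraries, so the TBT group enclosed the DMSO group. The F3 means were 0.5% ± 0.0431 (SD, n = 5) and 0.536% ± 0.101 (SD, n = 7), with p = 0.462 over 792 splits (two-sided exact permutation test).

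By class the shares moved in parallel. In F1, exon windows held 0.211% ± 0.0226 of the DMSO and 0.219% ± 0.0136 of the TBT counts, intron windows 0.106% ± 0.0120 and 0.116% ± 0.00687, and windows outside genes 0.150% ± 0.0178 and 0.153% ± 0.00695 (SD, n = 3 and 4). In F3 the exon shares were 0.185% ± 0.0144 and 0.200% ± 0.0383, the intron shares 0.136% ± 0.0131 and 0.144% ± 0.0260, and those outside genes 0.180% ± 0.0160 and 0.193% ± 0.0371 (SD, n = 5 and 7). The 8 exact permutation tests of shares gave p between 0.200 and 0.743, and 0.539 to 0.743 after Benjamini-Hochberg adjustment over the 4 shares of a generation. The differences between TBT and DMSO amounted to between 2.50% and 9.65% of the DMSO share, always with the higher mean in TBT. Single libraries moved these differences. In F1 the difference over all windows was 0.022 percentage points, and it was 0.0516 without DMSO library 3 (p = 0.0667 in the exact permutation test, the smallest its 15 splits allow), between 0.00693 and 0.00919 without DMSO library 1 or 2 or TBT library 6, and between 0.0235 and 0.0299 without another TBT library. The exon difference was -0.000248 without DMSO library 1, and that outside genes -0.00362 without DMSO library 2. In F3 the difference over all windows was 0.0361 percentage points, and it was 0.0629 without TBT library 8, 0.0169 without TBT library 10, 0.0197 without TBT library 12 and 0.0223 without DMSO library 4. Over fits without 1 library, the F1 intron difference of 0.0102 moved between 0.006 and 0.0171. In F3 exons 0.0153 moved between 0.00785 and 0.0253, in introns 0.00793 between 0.00295 and 0.0146, and outside genes 0.0129 between 0.00607 and 0.0229.

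**Figure D3:**
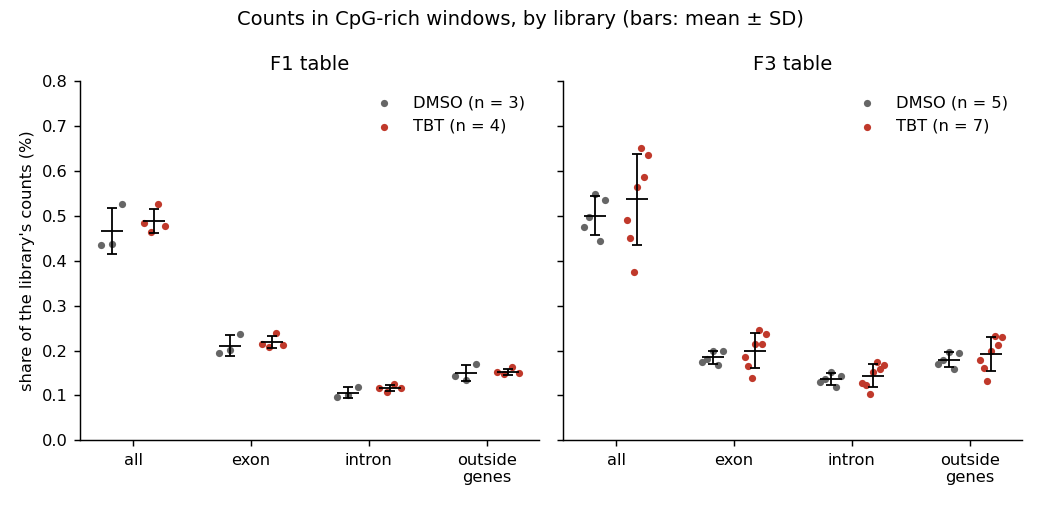
Percent of a library's counts (vertical axis) in all of the CpG-rich windows and in those of each class, for DMSO and TBT libraries of F1 (n = 3 and 4) and F3 (n = 5 and 7). Points are libraries and bars the mean with the SD; the groups overlap in every class, and the F3 TBT libraries spread from 0.376% to 0.652% over all windows.

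The libraries with the highest and lowest shares also stood apart in windows with 0 CpG. F3 TBT library 8, with the lowest share (0.376%), had 36% of its counts in windows with 0 CpG, and TBT library 10, with the highest (0.652%), had 28.5%. The order did not hold throughout: F3 DMSO library 3 had 28.8% in windows with 0 CpG and a share of 0.549%. TBT libraries 9, 11 and 12 had higher shares, 0.564%, 0.586% and 0.635%, with 30.2%, 30.0% and 29.0% in windows with 0 CpG. In F1, DMSO library 3 and TBT library 6, with the 2 highest shares, had the 2 lowest percentages in windows with 0 CpG, at 34.4% and 34.9%. The part that the capture of a whole library takes in the shares was not tested. Within a group, the counts of the windows with a mean of 10 or more varied by 1.18 and 1.21 times counting error in F1 (chi-square per degree of freedom, 198 windows, DMSO and TBT) and by 1.20 and 2.36 times in F3 (198 windows), so the F3 TBT libraries varied most.

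Single windows were tested over the whole table with edgeR's quasi-likelihood test. Of the 323 F1 windows 187 passed the filter on low counts and were tested (71 in exons, 50 in introns and 66 outside genes), and 136 did not. Of the 318 F3 windows 200 were tested (59, 60 and 81), and 118 were not. At a false discovery rate (FDR) under 0.05, 1 of the 187 F1 windows passed, lower in TBT and outside genes, and 0 passed higher. Of all 34559 F1 windows tested, 11 passed (0.0318%), 9 of them lower (0.026%) and 2 higher (0.00579%). In F3 0 of the 200 windows passed, and 0 of all 47563 (0%), by either test of edgeR and by DESeq2.

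The F1 window that passed lies at chr18:68692101-68692200, outside genes, 47200 bp from the nearest transcript start and 262781 bp from the nearest coding gene, Mc2r, the receptor for adrenocorticotropic hormone. It has a CF of 9, no base masked as a repeat and the highest mean of all F1 windows described here (55.4 CPM). The DMSO libraries had 71.1, 65.7 and 81.3 CPM and the TBT libraries 49.7, 46.5, 20.4 and 53.3 CPM. All TBT values were below all DMSO values, and TBT library 6 was the lowest. The DMSO mean was 72.7 ± 7.91 CPM (SD, n = 3) and the TBT mean 42.5 ± 15 CPM (SD, n = 4). The log2 fold change was -0.69 with a standard error of 0.156 (edgeR, FDR 0.0358). The adjoining window, which has a CF of 2 and was listed beside it, had a log2 fold change of -0.67 (unadjusted p = 7.15e-05 by edgeR). Adjoining windows can share fragments, so it is not a separate observation. The call was lost with scaling to total counts (FDR 0.0807), without the filter on low counts, with DESeq2 (0 windows passed with either) and when any 1 library but TBT library 7 was left out, with FDR between 0.103 and 0.536 in those 6 fits. The log2 fold change was -0.69 with total counts, -0.76 with DESeq2 and between -0.75 and -0.62 in 5 of those 6 fits, and it was -0.55 without TBT library 6.

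At an unadjusted p under 0.05, 9 of the 187 F1 windows were higher in TBT (4.81%, against 2.64% of all tested windows) and 3 lower (1.60%, against 2.37%). The higher ones were 4 of 71 exon, 5 of 50 intron and 0 of 66 outside windows. The lower ones were 3 of the 66 outside genes. In F3, 15 of 200 were higher (7.50%, against 2.78%) and 3 lower (1.5%, against 2.41%). The higher ones were 7 of 59 exon, 3 of 60 intron and 5 of 81 outside windows, and the lower ones 0, 2 and 1. Shares of each class over the whole table were not computed, so these counts do not show a difference between classes in either generation. DESeq2 gave 11 higher and 1 lower in F3 at that p (1.03% and 0.889% of all tested windows), and 1 and 1 in F1 (0.709% and 0.935%). In F1 the share of higher windows among those described here was not above that of all tested windows in each fit. It was 1.9% (4 of 211) against 2.58% without DMSO library 1, 2.17% (4 of 184) against 2.36% without TBT library 4, 2.97% (6 of 202) against 2.38% without TBT library 6, 3.21% (6 of 187) against 2.59% with an offset for CpG number, and 4.39% (14 of 319) against 2.89% without the filter on low counts. Lower windows were 5 (2.37%, against 2.14%), 3 (1.63%, against 2.42%) and 5 (2.48%, against 2.42%) when those libraries were left out, in that order. With the offset 4 were lower (2.14%, against 2.48%), and without the filter 6 (1.88%, against 1.66%). In F3 the share of higher windows was 4% (8 of 200) against 1.61% with total counts, 4.5% (9 of 200) against 2.74% with the offset, 2.55% (8 of 314) against 2.44% without the filter, 16% (32 of 200) against 3.22% without TBT library 8, and 4.5% (9 of 200) against 2.54% without TBT library 10. Lower windows were 4 (2%, against 3.04%) with total counts, 6 (3%, against 2.25%) with the offset and 8 (2.55%, against 1.81%) without the filter. Without TBT library 8 or 10, 2 windows were lower in each fit (1%, against 3.16% and 2.35%). The offset removes by construction a change that follows CpG number. Groups that did not overlap at all were found for 9 F1 windows with TBT higher (4.81%, against 3.45%) and for 3 with TBT lower (1.60%, against 3.17%). In F3 there were 0 in either direction, against 0.103% and 0.132% of all tested windows.

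The 3 F1 windows with non-overlapping groups and the smallest p in the higher direction did not pass the FDR, and their values are given as such. The first is in the 3' UTR of Pias4 at chr10:81153701-81153800, with a CF of 11. Its DMSO libraries had 21.2, 20 and 23.8 CPM and its TBT libraries 33.2, 34.1, 44.2 and 32.4 CPM (log2 fold change 0.67, standard error 0.213, FDR 0.933 by edgeR). Every TBT value was above every DMSO value, with TBT library 6 the highest. The second, the Mbnl2 intron window (a regulator of RNA splicing) printed above, had 13.8, 15.7 and 15.2 CPM in DMSO and 21.9, 22.9, 28.4 and 18.8 CPM in TBT libraries (log2 fold change 0.57, FDR 0.974 by edgeR). The third, the coding window of Tenm3, a cell adhesion protein of synapses, had 17, 22.9 and 19.5 CPM in DMSO and 23.9, 27.6, 30.6 and 27.7 CPM in TBT libraries (log2 fold change 0.47, FDR 0.974 by edgeR). In the lower direction, the coding window of Klhl30, a gene of the kelch-like family, had 36.1, 38.6 and 39.0 CPM in DMSO and 29.2, 32.3, 26.1 and 32.4 CPM in TBT libraries (log2 fold change -0.31, FDR 0.997 by edgeR). The window outside genes near Ak6, an adenylate kinase whose gene is 142 bp away, had 32.9, 32.9 and 30.3 CPM in DMSO and 29.8, 25.3, 28.4 and 27.2 CPM in TBT libraries (log2 fold change -0.22, FDR 0.997 by edgeR). Windows listed beside Klhl30 and Tenm3 had smaller changes: 1 next to Klhl30 had a log2 fold change of -0.16, and 2 near the Tenm3 window had 0.19 and -0.03 (unadjusted p between 0.422 and 0.895 by edgeR). In the Klhl30 and Ak6 windows every TBT value was below every DMSO value, by a small margin, and the 3 DMSO values lay close together.

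The 5 Pias4 windows lie close together and can share fragments, so they are not separate observations. The window next to the first one, at chr10:81153801-81153900, had 25.5, 30.0 and 30.3 CPM in DMSO and 32.5, 38.2, 48.8 and 31.3 CPM in TBT libraries. The other 3, which lie 300 to 500 bp from the first, had overlapping groups, with DMSO means of 32.8, 36.4 and 34.3 CPM and TBT means of 31.1, 33.5 and 36.2 CPM. Of the windows with fewer sites listed beside them, the one before the first had a log2 fold change of 0.45 and the one between the second and the third 0.06 (unadjusted p = 0.0233 and 0.765 by edgeR). The groups were separate in 2 of the 5 windows, those nearest the 3' end of the gene.

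Since 0 F3 windows had separate groups, the F3 windows with the smallest p in each direction were chosen after their values were seen. The window outside genes near Hdgfl1 at chr13:26442001-26442100, wholly masked as repeats, had 10.9, 17, 14.4, 11.1 and 15.3 CPM in DMSO libraries and ran from 12.6 to 30.4 CPM in TBT libraries (median 20.6), with a log2 fold change of 0.67 and a standard error of 0.187 (edgeR, FDR 0.745). The window near Asb9 at chrX:164615901-164616000, also wholly masked, had 15.9, 17, 9.3, 8.75 and 9.89 CPM in DMSO libraries and ran from 12.1 to 26.1 CPM in TBT libraries (median 17.9), with a log2 fold change of 0.62 (edgeR, FDR 0.914). In both, the TBT libraries reached above the DMSO range but overlapped it at the lower end. The coding window of Galnt4, an enzyme that starts O-linked sugar chains, at chr10:99109501-99109600 had 36.9, 34, 35.5, 30.2 and 45 CPM in DMSO libraries and ran from 31 to 69.7 CPM in TBT libraries (median 49.4), with a log2 fold change of 0.43 (edgeR, FDR 0.914). In the lower direction, the intron window of Rfx8, a gene of the RFX transcription factor family, at chr1:39687701-39687800 had 12.3, 12.6, 15.2, 11.9 and 8.99 CPM in DMSO libraries and ran from 4.74 to 10.7 CPM in TBT libraries (median 6.95), with a log2 fold change of -0.79 (edgeR, FDR 0.914). In Galnt4 and Rfx8 too the ranges of the groups overlapped. The adjoining window at Rfx8, with a CF of 1, had a log2 fold change of -0.96 (unadjusted p = 3.61e-05 by edgeR). The windows adjoining those near Hdgfl1 and near Asb9 had 0.76 and 0.54, and the one adjoining the Antxr2 window -0.44 (unadjusted p = 0.00356, 0.00455 and 0.0774 by edgeR). A further window near Asb9, 200 bp on, had 0.36 (unadjusted p = 0.132 by edgeR). Such neighbours can share fragments with the named windows, so they are not separate observations. The other 2 lower windows, in an intron of Antxr2 and near Gm17267, had log2 fold changes of -0.64 and -0.44 (edgeR, FDR 0.949 and 0.947).

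**Figure D4:**
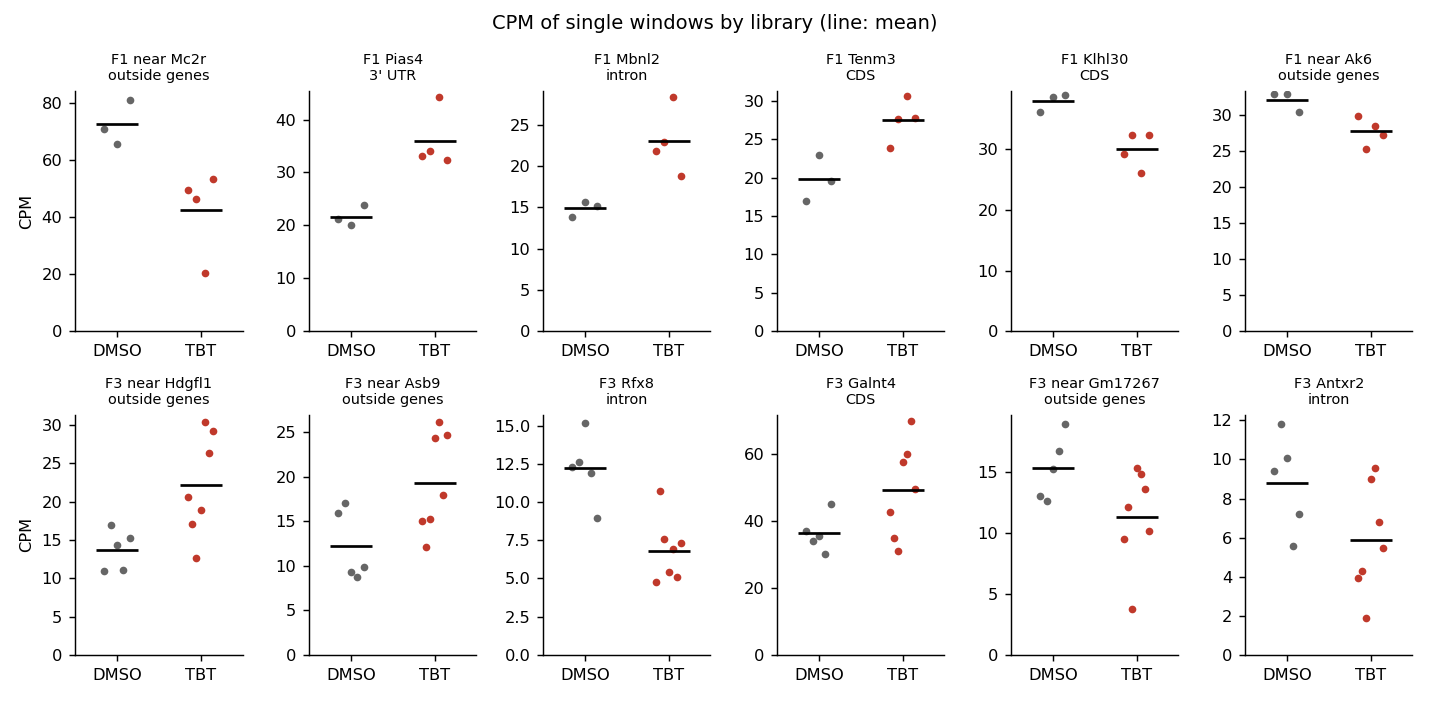
CPM (vertical axes, each from 0) of 12 single windows in DMSO and TBT libraries, the 6 of F1 above (n = 3 and 4) and the 6 of F3 below (n = 5 and 7), with points for libraries and a line for the mean. The F1 groups are separate in each panel and the F3 groups overlap in each; of the 12, 1 passed the FDR, the F1 window near Mc2r at 72.7 and 42.5 CPM.

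Across all tested windows the median change in F3 was near 0 up to a CF of 2, higher at each CF from 3 to 7, and without a steady course above. The median log2 fold change of the 200 F3 windows was 0.12, against 0.01 of all 47563, and 151 of the 200 (75.5%) were above 0, against 51.1%. Windows with a CF of 0, 1 and 2 had medians of 0.00, -0.01 and -0.01, those with a CF of 3, 4, 5 and 6 had 0.02, 0.06, 0.08 and 0.12, and those with a CF of 7, wherever they lay, had 0.15. At a CF of 8, 9, 10 and 11 or more the medians were 0.13, 0.15, 0.22 and 0.10, over 88, 44, 17 and 21 windows. The classes did not stand apart from one another, with medians of 0.14 in exons, 0.09 in introns and 0.14 outside genes. Dense windows within 1000 bp of a transcript start had 0.09 (50 tested) and those in LTR loci 0.19 (107 tested). With an offset for CpG number in each library, the median of the 200 windows became 0.02 and 107 of them (53.5%) were above 0. The offset was fitted to the same counts, these windows included, so it removes by construction a change that follows CpG number. In F1 the 187 windows had a median of 0.05 against 0.00 of all 34559, with 109 (58.3%) above 0, and with the offset 0.03 and 104 (55.6%). Single libraries moved these medians: in F1 the median was 0.00 without DMSO library 1, 0.03 without DMSO library 2, 0.15 without DMSO library 3 and 0.02 without TBT library 6, and in F3 it was 0.08 without TBT library 10. The filter moved them too, to 0.11 in F1 and 0.07 in F3 without it and to 0.02 in F1 with a mean of at least 20 counts. For windows with a CF of 10 or more the median was 0.03 in F1 and 0.06 in F3. For those more than 5000 bp from a transcript start it was 0.07 in F1 and 0.12 in F3. These are medians over windows of the same libraries and are given without a test.

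**Figure D5:**
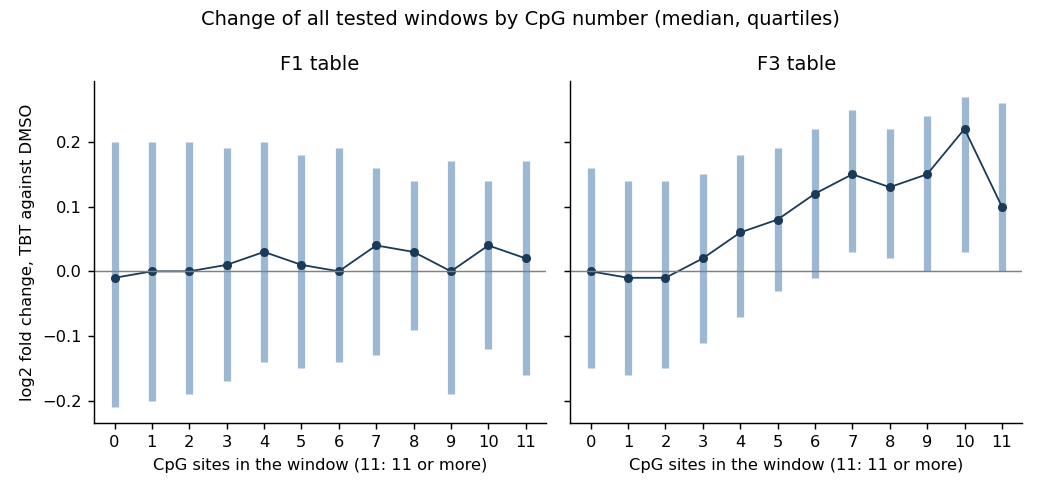
Log2 fold change of TBT against DMSO (vertical axis) of all tested windows by CpG number (horizontal axis, 11 standing for 11 or more) in F1 and F3. Points are medians and bars the quartiles; in F3 the median goes from 0.00 at 0 CpG to 0.15 at 7 and lies between 0.10 and 0.22 above, and in F1 it stays between -0.01 and 0.04.

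The 2 tables share 943 windows, and 5 of those described here are in both, which allows a view of the same DNA in 2 generations. The tables were scaled separately, so the levels are set side by side without a test. The window near Cdh7, a cadherin, at chr1:109035401-109035500 had a mean of 21.6 CPM in F1 and 25.6 CPM in F3, and the intron window of the nonagouti gene a, a coat colour gene, at chr2:154935101-154935200 had 17 and 24.5 CPM. The other 3 were low in both: the intron windows of Znrf1 (2.00 and 1.60 CPM) and Gpc5 (2.16 and 4.48 CPM) and the window near Zic1 (0.257 and 0.119 CPM). Both of the higher windows could be tested for a difference of the exposure change between generations. In F3 minus F1 the change differed by 0.00 (standard error 0.315) near Cdh7 and by 0.29 (standard error 0.334) in a, with FDR of 0.995 and 0.968 in edgeR's interaction test. None of all 319 windows tested there passed (0%), and 17 (5.33%) had an unadjusted p under 0.05, 0 of them described here.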

How the data were processed

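Per the labels, MBD-seq libraries came from F1 and F3 P6 cells of 2 exposures, and groups were taken from the sample titles. The authors captured methylated DNA with a methyl-binding domain and deposited raw counts for windows of 100 bp. The other value the authors deposited for a window is its CpG number (CF). Trim Galore, STAR, edgeR and the mm10 build are named in the submitters' processing notes without their roles for this assay. The counts carry no correction for CpG density or input, so levels depend on both. The CF of every window equalled the CpG sites of GRCm38 that start or end in it.

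Windows were placed with GENCODE M21 on GRCm38.p6. An exon took precedence over an intron. LTR loci came from the coordinates of the study's F1 somatic table of retroviral RNA, whose RNA values were not used here. Soft-masked RefSeq bases gave the repeat content, and 200 bp on each side gave the 500 bp surroundings.

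Each table was tested as a whole with edgeR 4.0.16 in R 4.3.3 (filterByExpr, TMM, quasi-likelihood test, Benjamini-Hochberg FDR of 0.05). Standard errors are the log2 fold change divided by the square root of F. Shares were compared with two-sided exact permutation tests over libraries in Python 3.11.15. The edgeR test was also run on simulated data with 200 changed windows. It recovered only part of the changes, and a smaller part in F1 than in F3, so a window that did not pass cannot be called unchanged. DESeq2 1.42.0 was an alternative, as were total counts, median-ratio scaling, an offset on CF, no filter, mean count limits of 20 and 100, the likelihood ratio test, a CF of 10, a distance of 5000 bp and each library left out. Leaving out the stretch of chromosome 10 was added after seeing the data.

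The rule for named windows was, per generation, up to 8 higher and 8 lower windows past the FDR with separate groups or, under 3, the 3 of smallest p with separate groups; per class the 2 highest; per gene list the highest and that of smallest p. The F3 windows of smallest p, the genes with several windows, the adjoining windows and the windows in both tables were named outside this rule, after their values were seen. The members and lists were chosen with earlier results of these data known. The input library and the authors' modelling of methylation were not used here. 1 window that the rule names is not reported here.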

Additional observations from a re-analysis of the deposited data

Results flagged for a closer look

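In F1 the Pias4 window of chromosome 10 that starts at 81153701 had 44.2 CPM in TBT library 6, far from the other 3 TBT libraries, whose median was 33.2 CPM. The gap to the nearest of them was 0.854 of the group's range. Of 45 groups of libraries examined for an outlying library, this was 1, and chance gives about 1 in 20 such groups.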

How the results depend on the processing

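No paired analysis was possible because the DMSO and TBT libraries of a generation share no replicate number.

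The 1 F1 window that passed was lost, giving 0, with total counts, without a filter, with DESeq2 and when a CF of 10 was asked for, and leaving out single libraries gave between 0 and 1. In F3 the alternatives and the fits without 1 library gave 0 windows. For the difference between generations 0 of the windows described here passed in any fit run, and 1 of the other shared windows passed with total counts and in 5 of the 19 fits without 1 library. DESeq2, the mean count limits, a CF of 10 and a distance of 5000 bp were not run for it. The F1 intron share turned to -0.00071 percentage points with a CF of 10. Leaving out single libraries moved the F1 exon difference between -0.000248 and 0.0209 and that outside genes between -0.00362 and 0.0137 percentage points, while the other 6 share differences kept their sign, with ranges over all windows of 0.00693 to 0.0516 in F1 and 0.0169 to 0.0629 in F3. Among the named windows none gained a call. Most log2 fold changes that turned were near 0, except that of Zfp316 (-0.18). With the offset on CF, Ncoa2 and Zfp385b were at -0.01, Pcdhb17 at -0.08 and the F3 window near Cdh7 at -0.10, which was at -0.01 with total counts. Over fits without 1 library, the ranges were -0.22 to 0.22 (near Cdh7, F1), -0.06 to 0.08 (near Cdh7, F3), -0.11 to 0.15 (a, F1), -0.41 to 0.25 (Zfp316), -0.01 to 0.19 (Zim1), -0.04 to 0.17 (Ncoa2), 0.00 to 0.23 (Begain) and -0.08 to 0.19 (Pcdhb17). The cause of these turns was not tested. Depth limits the test: 136 F1 and 118 F3 windows did not pass the filter on low counts. Without the filter 319 and 314 were tested and 0 passed.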
